A study of Mus musculus with 6 samples.

Results

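Abcc1, Abcc5 and Abcg2 are the genes of 3 ATP-binding cassette (ABC) transporters that pump drugs and metabolites out of cells. They were chosen by name, and every transcript row that carried one of these names was taken. This gave 7 transcript rows of the 15905 in the authors' deposited table, and 3 of its 8513 genes. Abcc1 and Abcg2 had 3 rows each and Abcc5 had 1.

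The study sequenced RNA from B16.F10, a line grown from a mouse melanoma that forms pigmented tumours and that the labels call wild type. The 3 control samples had no treatment by the labels, and the 3 simvastatin samples received 3.5 µM simvastatin for 24 h, a dose the labels name as the IC50. All 6 samples came from this 1 cell line, share a single batch date and are called biological replicates in the series text, and the spread that the authors' p-values measure is known only as far as that description goes. The title names lipid metabolism and an early resistant phenotype as the subject, and the question for these 3 genes is whether their RNA differed after the statin.

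ABC transporters bind ATP on cytoplasmic domains and use its hydrolysis to move a substrate across a membrane. Abcc1 encodes Mrp1, which exports glutathione conjugates, leukotrienes and several anticancer drugs, and Abcc5 encodes Mrp5, which exports cyclic nucleotides, haem and nucleoside analogues. Abcg2 encodes the breast cancer resistance protein, a small pump that works as a dimer and exports porphyrins, urate, some statins and many drugs. High levels of these proteins are a known route to resistance against several drugs at once.

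The authors' deposited table gave 1 value per group and transcript, with no separate samples. The values therefore carry no SD and their depth is unknown. Their unit was not given in the sources used here, so no gene is ranked against another by its level, and mean values served only to choose which genes of a list to name. The group values of all rows summed to 344210 with simvastatin and 394749 in control. Scaling both groups to the same total would raise every log2 ratio of simvastatin to control by 0.20. The pigment cell identity of the line was borne out, with all 8 melanocyte markers listed and summed values of 11465 with simvastatin and 8012 in control. Of the 39 rows of these markers, 1 had an adjusted p under 0.05, against 2.09% of all rows. It belonged to Gpnmb, a melanosomal glycoprotein gene, and stood at 1856 with simvastatin and 1060 in control in the authors' deposited table (adjusted p = 0.042). Summed over their rows, 7 markers were higher with simvastatin, with Sox10 at a log2 ratio of only 0.03. Tyr was the 1 lower marker, at 50.2 with simvastatin and 53.1 in control. Whether the marker values bear on those of the transporters was not tested. Of 17 markers of fibroblasts, leukocytes, endothelium and epithelium, Cd68 was the 1 with a row, at 0.93 and 0.37, and the other 16 were not analysed here.

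None of the 7 rows passed the threshold of an adjusted p under 0.05 in the authors' deposited table, which 2.09% of all rows did, 1.11% as higher and 0.987% as lower with simvastatin. The call made by the authors, whose rows had an adjusted p of at most 0.2 and at least a 1.5-fold difference, was given to none of the 7, against 9.5% of all rows (5.13% higher and 4.37% lower). At an unadjusted p under 0.05, 1 of the 7 rows was called in the authors' deposited table, Abcc5 as higher, against 19.6% of all rows (9.42% higher and 10.2% lower). The tool behind these p-values was not given in the sources used here. Gene totals, each the sum over a gene's rows, differed in direction: Abcc5 stood higher with simvastatin and Abcg2 lower. The total of Abcc1 was also lower, but its direction turned with the rows that were counted, since its most abundant transcript stood higher and its other rows lower. In bulk RNA, fewer cells that express a gene and less RNA per cell cannot be told apart.

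**Figure D1:**
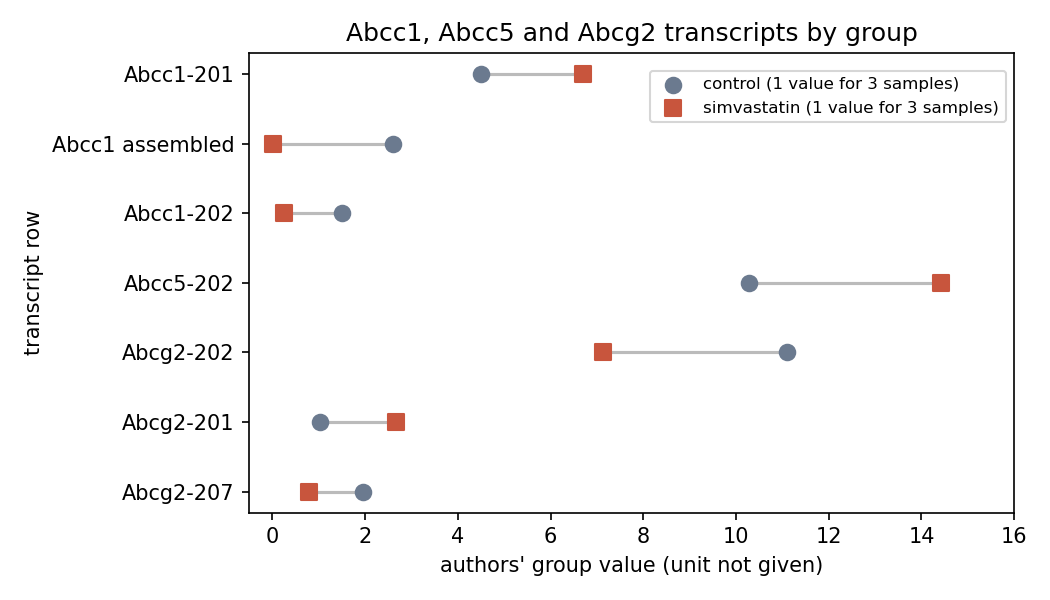
The authors' group value (horizontal axis, unit not given) of each of the 7 transcript rows (vertical axis), with circles for control and squares for simvastatin, each 1 value for 3 samples and so without error bars. Abcc5-202, Abcc1-201 and Abcg2-201 are higher with simvastatin and the other 4 rows lower, with no row past an adjusted p of 0.05.

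The proteins share the phosphate-binding loop of the ATP site, the Walker A motif, and its codons are shown because 1 of the annotated transcripts, Abcc1-202, has a reading frame that ends before them. The stretches below were read from the GENCODE M21 transcripts (GRCm38), 5′ to 3′, and the capitals mark the codons for the final glycine, lysine and serine or threonine of the loop.
Abcc1 first site, codon 678: ggccaggtaggctgcGGGAAGTCA
Abcc1 second site, codon 1324: ggtcgtacgggagctGGGAAATCA
Abcc5 first site, codon 595: ggcagtgtgggaagtGGAAAAACC
Abcc5 second site, codon 1226: ggacgaacagggtcaGGGAAGTCC
Abcg2 single site, codon 79: ggacccacaggcggaGGCAAGTCT
Abcc1 and Abcc5, which are full transporters, had 2 matches each and Abcg2 had 1. Across the 5 stretches, 9 of the 24 positions held the same base.

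Abcc5 (ENSMUSG00000022822) lies on chromosome 16 (20331303 to 20426394, minus strand, GRCm38). Its 1 row, ENSMUST00000079158, is the annotated protein-coding transcript Abcc5-202 with 30 exons and 1436 codons. In the authors' deposited table it had the value 14.42 with simvastatin and 10.28 in control. The simvastatin value was thus 1.40 times the control value, a log2 ratio of 0.49. In the authors' deposited table the p-value was 0.004 and the adjusted p was 0.077, so the difference did not pass the threshold. An unadjusted p of 0.004 or less was printed for 925 rows, or 5.82% of all rows. The fold of 1.40 also lay under the 1.5 that the authors' calls reached, as it did for 1054 rows with an adjusted p of up to 0.2. The log2 ratio of Abcc5 was higher than or equal to that of 81.9% of genes. After scaling to equal group totals it was 0.69, and with a pseudocount of 1 it was 0.45.

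Abcc1 (ENSMUSG00000023088) also lies on chromosome 16 (14361558 to 14475737, plus strand). Its most abundant row, ENSMUST00000100167, is Abcc1-201, the protein-coding transcript with 31 exons and 1528 codons, which holds both Walker A sites. In the authors' deposited table it stood at 6.70 with simvastatin and 4.49 in control, a fold of 1.49 (p = 0.587, adjusted p = 0.796). The row that the annotation classes as subject to nonsense-mediated decay, ENSMUST00000130671 or Abcc1-202, stood at 0.24 and 1.51 in the authors' deposited table (p = 0.323, adjusted p = 0.632). The remaining row, a model assembled from reads whose structure was not given in the sources used here, stood at 0.01 and 2.61 in the authors' deposited table (p = 0.536, adjusted p = 0.763). The protein-coding row was therefore the higher one with simvastatin and both other rows were lower, and none of these differences passed the test.

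The deposited fold of the assembled Abcc1 model was 222 towards control, and it rests on a simvastatin value at the last printed decimal. Rounding alone allows any fold from 174 to 523 for it. A fold of at least 100 was listed for 237 rows, and 200 of these had an unadjusted p of 0.05 or more in the authors' deposited table. Most rows of such a fold thus had no small p-value, but so did most rows of any fold. Of all rows, 19.6% had an unadjusted p under 0.05.

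The 2 annotated Abcc1 transcripts differ at the end of exon 14, where Abcc1-202 runs 4 bases further before it joins exon 15. The junction of exons 14 and 15 is shown from both transcripts (GENCODE M21, plus strand, 5′ to 3′), with the added bases in capitals.
Abcc1-201: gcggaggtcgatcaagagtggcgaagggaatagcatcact
Abcc1-202: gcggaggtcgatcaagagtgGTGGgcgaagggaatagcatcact
The added bases shift the reading frame, and the annotated frame of Abcc1-202 ends in exon 15 after 643 codons. The first Walker A site begins at codon 678 of Abcc1-201, so the frame of Abcc1-202 holds neither site. They also differ in exon 19, where Abcc1-202 is 9 bases longer, in exon 21, where its 106 bases compare with 133, and at both transcript ends.

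The sum of the 3 Abcc1 rows was 6.95 with simvastatin and 8.61 in control, a log2 ratio of -0.31 that turned to 0.21 with Ensembl transcripts only and to 0.58 with the most abundant row only. Within the gene, Abcc1-201 made up 96.4% of the summed value with simvastatin and 52.1% in control. Abcc1-202 made up 3.45% and 17.5%, and the assembled model 0.144% and 30.3%. The change in the share of the most abundant row was 44.3 percentage points. Among the 996 genes with exactly 3 rows, the median of this change, with the sign dropped, was 9.69 points, and 43 genes including Abcc1 had a change at least as large. With 1 value per group, no test of the shares could be made. How reads from shared exons were divided among transcripts was not given in the sources used here.

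**Figure D2:**
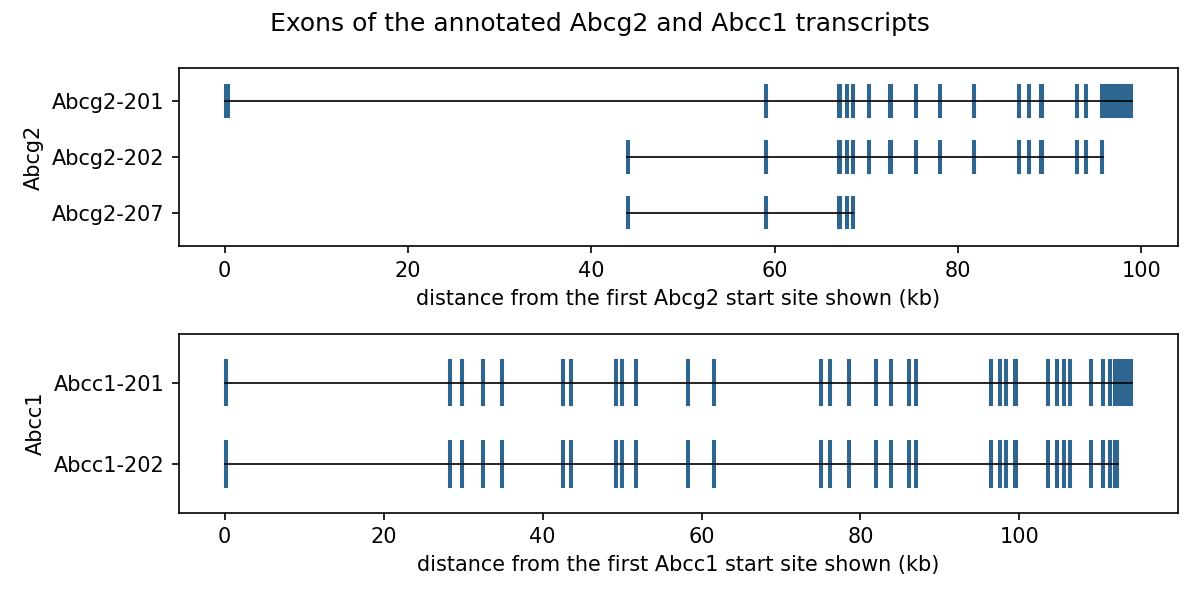
Exons (boxes) and introns (lines) of the annotated transcripts among the rows, drawn by distance in kb from the first start site shown for each gene, with short exons widened so that they can be seen. Abcg2-201 starts 43893 bases before Abcg2-202 and has a longer last exon, while Abcc1-201 and Abcc1-202 share 31 exons at nearly the same places.

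Abcg2 (ENSMUSG00000029802) lies on chromosome 6 (58584523 to 58695676, plus strand), and its 3 rows begin at 2 separate places. Abcg2-201 (ENSMUST00000031822) starts at 58596671, and Abcg2-202 (ENSMUST00000114294) starts 43893 bases downstream, at 58640564. The remaining row, Abcg2-207 (ENSMUST00000145161), starts at 58640560 and is annotated with an incomplete end after 172 codons. The coding sequences of Abcg2-201 and Abcg2-202 are identical, with 657 codons, because the start codon lies in the shared second exon. Their last exons differ, at 3434 bases in Abcg2-201 and 269 in Abcg2-202, so the rows are told apart by both ends.

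The RefSeq promoter windows (250 bases before to 50 after a start, GRCm38.p6) are shown for both start regions because the rows of the 2 regions stood on opposite sides between the groups. Capitals mark the matches of 5 motifs searched on both strands. They were TGACGTCA, the cyclic AMP response element or CRE, then GGGCGG, the GC box bound by Sp family factors, then TATAAA, the core promoter element named TATA box, then CACGTG, the E-box bound by several helix-loop-helix factors, and CCAAT. No match shown overlaps one of another motif.
Upstream window, chr6:58596422-58596721, plus strand: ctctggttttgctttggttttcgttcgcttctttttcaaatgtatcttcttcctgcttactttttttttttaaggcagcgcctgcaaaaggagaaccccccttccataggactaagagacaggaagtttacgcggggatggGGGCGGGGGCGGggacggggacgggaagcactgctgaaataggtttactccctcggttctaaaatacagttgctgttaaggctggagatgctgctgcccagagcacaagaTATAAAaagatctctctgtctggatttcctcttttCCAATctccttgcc
Downstream window, chr6:58640296-58640595, plus strand: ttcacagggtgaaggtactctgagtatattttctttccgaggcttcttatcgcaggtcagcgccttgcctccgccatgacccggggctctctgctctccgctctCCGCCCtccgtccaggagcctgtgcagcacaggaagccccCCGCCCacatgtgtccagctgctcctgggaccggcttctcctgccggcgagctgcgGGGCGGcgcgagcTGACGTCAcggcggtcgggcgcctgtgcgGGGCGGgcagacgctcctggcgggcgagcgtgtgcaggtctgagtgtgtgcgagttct
The start of Abcg2-201 is 1 base from the RefSeq start of the upstream window, and those of Abcg2-202 and Abcg2-207 are 18 and 14 bases from that of the downstream window. The upstream window holds 2 GC boxes, 1 TATA box match that begins 1 base past the RefSeq start, and 1 CCAAT match, and 48% of its bases are G or C. The downstream window holds 4 GC boxes and 1 CRE, with 67% G or C. Of 32851 promoter windows of this length, 1.79% hold the CRE letters, 35.7% the GC box, 13.6% the TATA box, 7.15% the E-box and 37.4% CCAAT. A match describes the letters and not a bound site.

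From the upstream start, Abcg2-201 stood at 2.67 with simvastatin and 1.03 in control in the authors' deposited table, a fold of 2.60 (p = 0.477, adjusted p = 0.744). From the downstream start, Abcg2-202 had 7.12 and 11.10 in the authors' deposited table, 1.56-fold towards control (p = 0.463, adjusted p = 0.735). The short Abcg2-207 had 0.79 and 1.95 in the authors' deposited table, 2.46-fold towards control (p = 0.25, adjusted p = 0.585). The row of the upstream start was thus the higher one with simvastatin and both rows of the downstream start were lower, while none of the 3 passed the test. The rows also differ at their last exons, so these values do not measure start use by itself, which was not tested.

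Summed over its rows, Abcg2 stood at 10.58 with simvastatin and 14.08 in control, 24.9% lower, with a log2 ratio of -0.41. This total kept its direction after scaling to equal group totals, at -0.21, and with the most abundant row only, at -0.64. The downstream rows together had 7.91 and 13.05, and their share of the gene was 74.8% with simvastatin and 92.7% in control. The upstream row's share was 25.2% and 7.32%. The share of the most abundant row, Abcg2-202, was 67.3% and 78.8%, a change that 55.7% of the genes with 3 rows did not exceed. Both Abcc1 and Abcg2 had rows on either side, as had 722 of the 996 genes with 3 rows (72.5%).

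**Figure D3:**
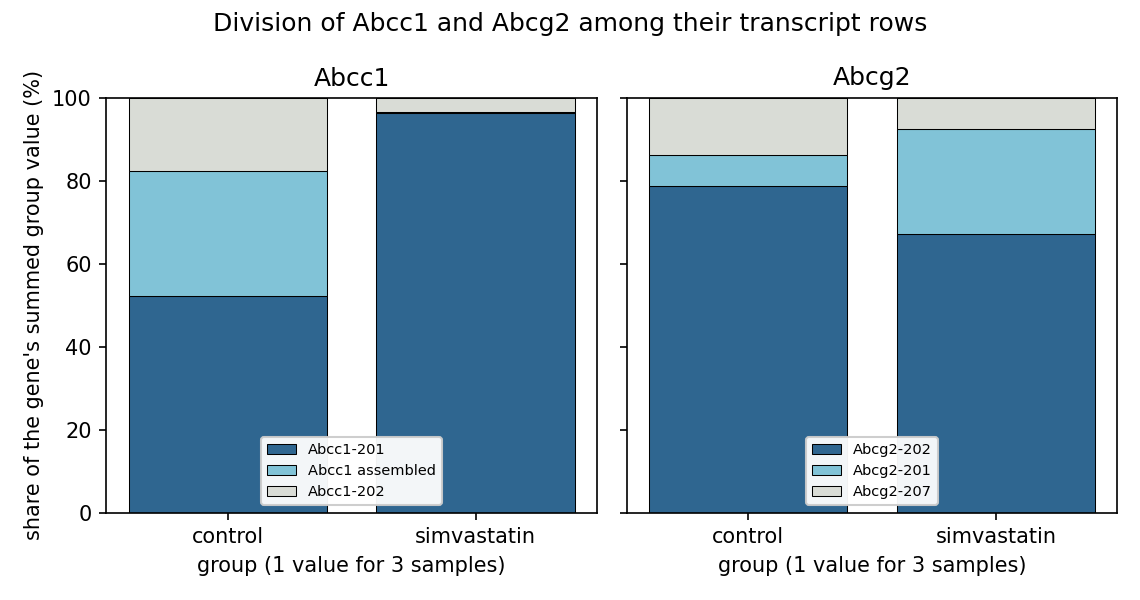
Share of each gene's summed group value (vertical axis, percent) taken by each of its 3 rows, for Abcc1 (left) and Abcg2 (right), with 1 bar per group and no error bars because each group has 1 value. Abcc1-201 takes 52.1% in control and 96.4% with simvastatin, and Abcg2-201 takes 7.32% and 25.2%.

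Of 53 mouse genes of the ABC family, 17 had rows, 28 in all, and the other 36 were not analysed here. Among the 14 drug efflux pumps of the plasma membrane in that list, only Abcc1, Abcc5 and Abcg2 had rows, and the other 11, such as Abcb1a, Abcb1b and Abcc4, were not analysed here. Abca5, a lysosomal member linked to lipid handling, had the 1 family row past an adjusted p of 0.05 (0.042). Across all rows 2.09% passed this threshold. In the authors' deposited table the Abca5 row stood at 3.71 with simvastatin and 0.43 in control, 8.72-fold higher. Its log2 ratio was thus 3.11, whereas the log2 fold change that the authors deposited for Abca5 was 1.72. The source of this gap was not tested. The authors' call was given to 2 higher rows of the 28, those of Abca5 and Abca12, and to 1 lower, that of Abca1. Of all rows 9.5% had it. Abca1, the cholesterol exporter, had the authors' call at 1.09 with simvastatin and 3.40 in control in the authors' deposited table, but an adjusted p of 0.079. Abca12, a lipid transporter, had the call on the other side, at 5.30 and 2.59 in the authors' deposited table, with an adjusted p of 0.059. At an unadjusted p under 0.05 the family had 6 higher and 3 lower rows, 32.1% of its rows against 19.6% of all rows.

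By role, the mitochondrial transporter gene Abcb8 had a log2 ratio of gene totals of 0.15, and the peroxisomal fatty acid transporter gene Abcd3 had 0.51. The family members that act in translation and not in transport, Abce1, Abcf1, Abcf2 and Abcf3, had -0.13, -0.02, -0.28 and 0.14. Abca7, a phospholipid transporter gene, had 0.91. The family median was 0.15 over 17 genes, beside 0.02 over all genes. Abcc5 lay above that family median and Abcg2 below it, while the place of Abcc1 turned with the rows counted. Its total lay below the median, but with the most abundant row of each gene Abcc1 stood at 0.58 and the family median at 0.31. Of the family genes 10 were higher and 7 lower, or 58.8% higher against 51.7% of the 8505 genes with a ratio. After scaling to equal group totals the counts were 13 and 4, or 76.5% higher against 66.1% of those genes.

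**Figure D4:**
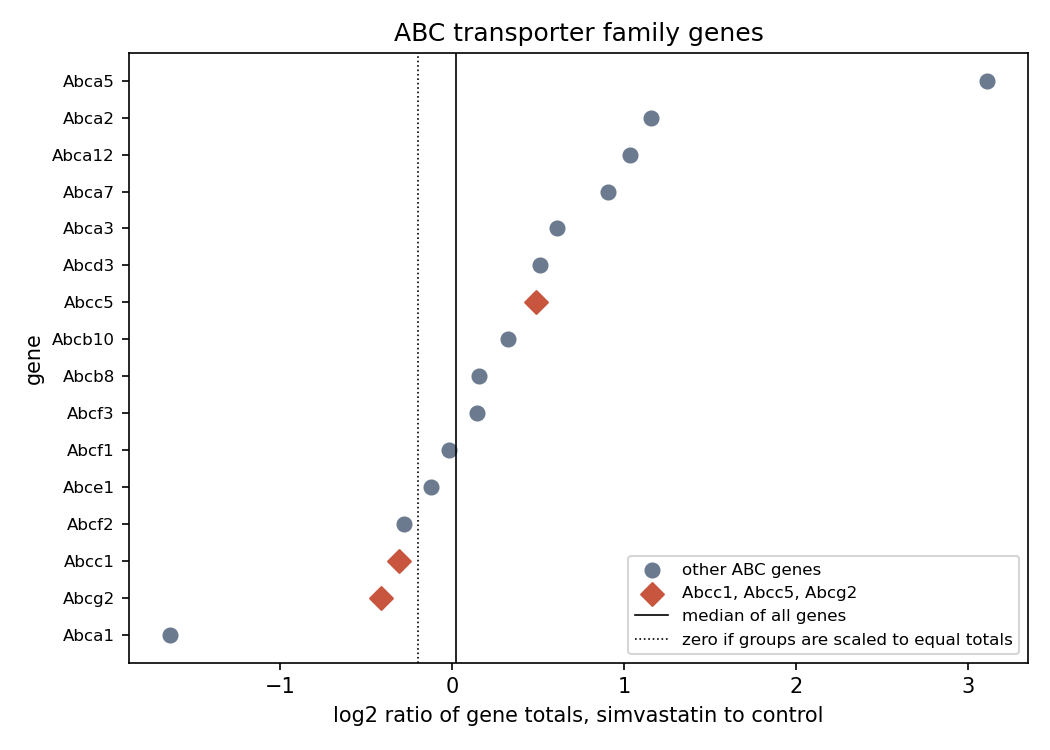
Log2 ratio of gene totals, simvastatin to control (horizontal axis), for 16 of the 17 ABC family genes (vertical axis), with diamonds for Abcc1, Abcc5 and Abcg2. The solid line is the median of all genes (0.02) and the dotted line the zero after scaling to equal group totals; Abcc5 lies at 0.49 and Abcc1 and Abcg2 at -0.31 and -0.41.

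Mrp1 exports conjugates of glutathione, and of 25 genes of glutathione metabolism and conjugation 17 had rows. Of their 26 rows none passed the adjusted threshold, with 5 higher and 1 lower at an unadjusted p under 0.05 in the authors' deposited table, 23.1% of the rows against 19.6% of all rows. Their median log2 ratio of gene totals was 0.34, with 14 genes higher and 3 lower, or 82.4% higher against 51.7% of the 8505 genes with a ratio. The genes named from this list are the transferase genes Gstp1, at 152 with simvastatin and 148 in control, and Gsta1, at 67.3 and 49.7 over its 2 rows, and both belong to families of near-identical genes whose reads can be hard to assign. Of 20 genes of transcription factors and partners known to bind or control ABC transporter genes, 12 had rows, and their median was 0.03. In that list 1 of 27 rows passed the adjusted threshold, as higher, against 2.09% of all rows. At an unadjusted p under 0.05 it had 1 higher and 2 lower rows, 11.1% against 19.6% of all rows. The row past the adjusted threshold was an assembled model of Sp3, which binds GC boxes. It stood at 3.57 with simvastatin and 0.38 in control in the authors' deposited table, 9.40-fold higher (adjusted p = 0.044). Over all 3 of its rows Sp3 stood at 13.63 and 14.60.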

How the data were processed

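RNA of 6 samples, grouped by their titles, was sequenced as stranded total RNA libraries per the labels' protocols. Per the submitters' processing notes, the tools included HISAT2 2.0.5, an aligner, and StringTie, which assembles transcripts, with GRCm38 as the build. Counting, filter and test were not given in the sources used here. For each transcript the authors deposited 1 expression signal per group, a signed fold score, a p-value and an adjusted p-value, both printed to 3 decimals, and for some genes a log2 fold change, as named in the file headers. No test was refitted, because only the authors' comparison was given.

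Computed here, in Python 3.11.15 with pandas 2.3.3, were gene totals (sums over a gene's rows), their log2 ratios and percentiles, shares within genes and counts over lists. Of these, the gene totals and their log2 ratios were tested on simulated data, as was the Benjamini-Hochberg adjustment. Of the lists' gene symbols 70 matched and 92 had no row. Annotation and transcript sequences came from GENCODE M21, promoter windows from RefSeq (GRCm38.p6): 3 for Abcg2 and 1 for Abcc5. Family genes past the threshold and the 10 of highest mean were named, and of other lists up to 4 past it or the 2 highest. Abca1, Abca12, Abcb1a, Abcb1b and Abcc4 were added after the values were seen. The members and lists were chosen with earlier results of these data known, and the promoter motifs after the sequences were seen. Values of 2 genes that the naming rule covers are not reported here.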

Additional observations from a re-analysis of the deposited data

How the results depend on the processing

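The log2 ratio of the Abcc1 total turned from -0.31 to 0.58 with the most abundant transcript only and to 0.21 with Ensembl transcripts only, both of which leave out the assembled model. It was -0.11 after scaling to equal group totals and -0.08 without rows of a mean under 1. Abcc5 ranged from 0.45 to 0.69 and Abcg2 from -0.64 to -0.21 under the alternatives that could move them; leaving out assembled models or rows of low mean does not touch either, nor does taking the most abundant row touch Abcc5, which has 1. Of the 28 ABC family rows, 1 passed by the authors' adjusted p, against 2.09% of all rows. The authors' call was given to 3, against 9.5% of all rows, and 9 had an unadjusted p under 0.05, against 19.6%. With the Benjamini-Hochberg adjustment recomputed from p-values rounded to 3 decimals, 4 passed. The share of all rows that passed under that setting is not given here. The family median ranged from 0.14 to 0.35. No paired analysis was possible because the tables give 1 value per group, and for the same reason no replicate could be left out. The depth of single values is unknown.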

Other observations

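Genes of substrates that these pumps export were listed beside them. Of 32 genes of cyclic nucleotide synthesis and breakdown, which set the level of an Mrp5 substrate, 9 had rows. None of their 19 rows passed the adjusted threshold in the authors' deposited table, against 2.09% of all rows. At an unadjusted p under 0.05, 4 were higher and 0 lower, 21.1% of the rows against 19.6% of all rows. The median log2 ratio of gene totals was 0.65, beside 0.02 over all genes. It takes genes of synthesis and of breakdown together, and so does not tell the level of the substrate. Adcy7, an adenylyl cyclase gene, had a total of 35.1 with simvastatin and 21.3 in control, and Pde11a, a phosphodiesterase gene, 20.2 and 14.9. The Pde11a rows stood on both sides in the authors' deposited table, with an assembled model at 11.95 and 3.39 and an annotated transcript at 5.36 and 9. Of 14 genes of haem synthesis, breakdown and transport, listed because Abcg2 exports porphyrins, 10 had rows, and their median was 0.07. None of their 15 rows passed the adjusted threshold, against 2.09% of all rows. At an unadjusted p under 0.05, 1 was higher and 1 lower, or 13.3% of the rows against 19.6% of all rows. The haem transporter gene Slc48a1 had 66.6 and 57.7, and Tspo, a mitochondrial porphyrin-binding protein gene, 58.2 and 44.9. Of 18 genes of other drug transporters and resistance proteins, 5 had rows, and their median was 0.51. None of the 12 rows passed the adjusted threshold, against 2.09% of all rows. At an unadjusted p under 0.05, 1 was higher and 0 lower, or 8.33% of the rows against 19.6% of all rows. Slc31a1, a copper importer gene that also carries platinum drugs, had 37.0 and 31.9.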
